A study of Capra hircus with 9 samples.

Results

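Beside the miRNAs already catalogued for the goat (names beginning with chi-), the count table of the mammary gland libraries listed miRNAs that were predicted from the reads themselves, and the best measured of these are described here. A row was taken when its name did not begin with chi- and its mean level over the 9 libraries was at least 5 CPM (counts relative to 1e+06 counts of the library). Rows with equal counts in every library were counted once, which made 91 predicted miRNAs out of 93 rows that met the rule, of 1359 miRNAs in all (436 known and 923 predicted). A further 9 predicted rows were left out by name, 7 of which reached the limit. Their mean level in late lactation was up to 1191 CPM, and in each of the 9 it was above that of the other stages, so the counts of miRNAs highest in late lactation given here are without them.

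A miRNA is cut from a hairpin precursor, and 1 strand, from either arm of the hairpin, is loaded into an Argonaute protein. The seed near its 5′ end then pairs with mRNAs, which are repressed. Programs such as miRDeep2 call a hairpin from the way reads stack on its arms and loop, so a predicted miRNA is a candidate without a curated entry, and no target or function is given here for any of them. Each carries the name of the assembly sequence and the running number of the prediction, as in NC_030828.1_27139. That number is not a position. Of the 91, 85 lay on chromosome sequences and 6 on scaffolds (names beginning with NW). They came from 32 sequences, with at most 11 on one.

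The libraries were made from whole mammary gland tissue of 9 healthy Laoshan dairy goats of the third parity, taken from the same udder side after slaughter. Their ages ran from 3 years 8 months to 4 years 1 month. Of these, 3 goats were in late lactation (LL, 240 days after kidding), 3 in the dry period (DP, 300 days after kidding) and 3 in late gestation (LG, 140 days after mating), with 1 library per goat. Groups were those of the sample titles (LL1 to LG3), and the labels gave no treatment other than the stage and no batch.

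The counts of a library summed to 16451436 to 24616668 in LL, 13672653 to 23392916 in DP and 21301913 to 34378995 in LG. At this depth 5 CPM corresponded to 68.4 to 172 counts, and the level that 3 counts give was 0.0873 to 0.219 CPM (for counting error only, since the reads carried no molecular identifiers and PCR copies are not independent). The most abundant known miRNA, chi-miR-148a-3p, had a mean of 676430 in LL and 92617 in DP (CPM scaled by TMM, edgeR's method, which sets library sizes from the miRNAs that move least), so the share of counts left to all others was not the same between stages. Known miRNAs that mark other cells moved too. The summed level of 5 epithelial markers of the miR-200 and miR-141 kind was 34893 to 42110 in LL, 34218 to 37558 in LG and 13064 to 20811 in DP, while chi-miR-205 was not analysed here. The sum of 5 skeletal muscle markers was 3444 in DP3 and 419 to 1070 in the 8 other libraries. Summed levels of 3 leukocyte markers lay between 767 and 1935 in DP, above those of LL (581 to 740) and LG (243 to 360). The sum of 5 markers of smooth muscle, myoepithelium and fibroblasts was 152577 in DP3, with 47515 in DP1, 67660 in DP2, 77786 to 125722 for LL and 57432 to 65601 for LG, with 3 of the 5 called higher in DP vs LL and 3 of the 5 in DP vs LG. For red blood cells, 3 markers summed to 1284 in DP2, 122 in DP1, 576 in DP3 and 87.1 to 551 in LL and LG. Both endothelial markers together gave 19028 to 31975 in DP, 15852 to 22980 in LL and 14716 to 16363 in LG, highest in DP2. None of the markers measured was at 0 in any library, and chi-miR-486-5p, chi-miR-142-5p and chi-miR-142-3p were not analysed here. The part of these cell markers in the results below was not tested. In whole tissue, fewer cells of a type and less of a miRNA per cell cannot be told apart.

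The mean level over the 9 libraries, which chose the members, ran from 5.19 to 2278 CPM with a median of 19.2 CPM. The 264 known miRNAs at or above 5 CPM had a median of 91.5 CPM. Of the predicted miRNAs, 13 were above 100 CPM, 55 between 10 and 100 CPM and 23 below 10 CPM. The 10 most abundant held 76.3% of the summed level of the 91, and the top 2 held 42.7%. In all, 86 of the 91 had at least 10 counts in every library. The lowest count of any of them in any library was 3.

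Just inside the limit were NW_017189517.1_34797 at 5.19 CPM, NC_030810.1_3786 at 5.31 CPM, NC_030826.1_25273 at 5.47 CPM and NC_030826.1_25741 at 5.68 CPM. Just outside were NC_030817.1_14555 at 4.74 CPM, NC_030823.1_21582 at 4.58 CPM, NC_030818.1_16131 at 4.52 CPM and NC_030812.1_7668 at 4.40 CPM. The step across the limit, from 4.74 to 5.19 CPM, was the widest among these rows. In all, 823 predicted rows lay below the limit.

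The summed share of a library's counts that fell on the 91 predicted miRNAs averaged 0.788% ± 0.0847 for LL, 1.15% ± 0.160 for DP and 1.26% ± 0.192 for LG (SD, n = 3 each). Without the 2 most abundant rows it was 0.479% ± 0.0654 (LL), 0.746% ± 0.0791 (DP) and 0.607% ± 0.121 (LG). These shares are of the library total, in which chi-miR-148a-3p weighs most in LL. With that miRNA taken out of the totals, the means for the 91 were 1.70% for LL, 1.27% for DP and 2.18% for LG, so the stage with the lowest share turned from LL to DP. By the library total, 14 of the 91 had their highest stage mean in LL, 37 in DP and 40 in LG. With TMM scaling the numbers were 28, 37 and 26. Among all 696 miRNAs tested, they were 104, 310 and 282 by the total, and 220, 299 and 177 with TMM.

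**Figure D1:**
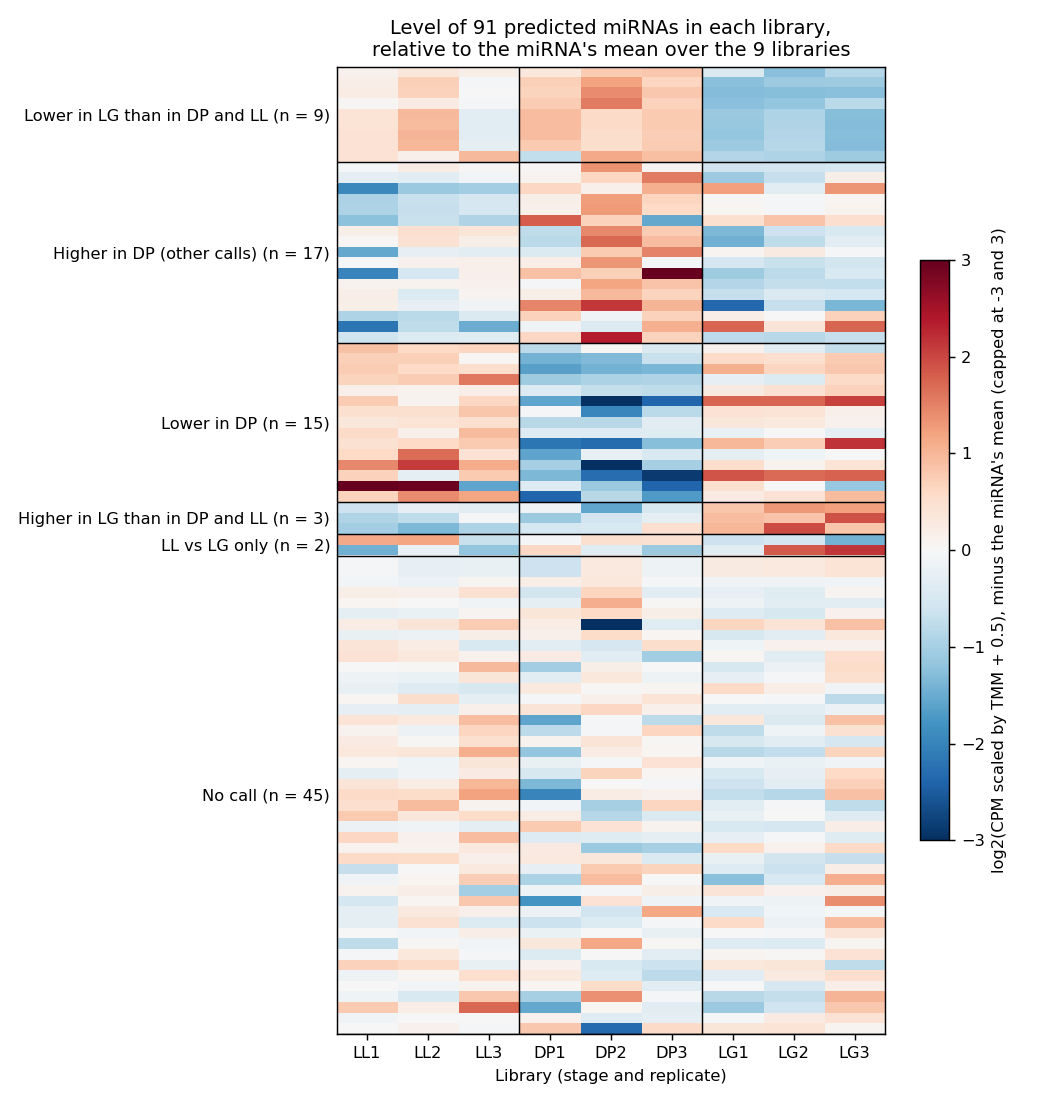
Level of each of the 91 predicted miRNAs (rows) in each of the 9 libraries (columns, stage and replicate), as log2(CPM scaled by TMM + 0.5) minus the mean over the libraries of that miRNA, with the colour scale capped at −3 and 3. Rows are grouped by the edgeR calls, with the 45 that passed in no comparison at the bottom, and the 9 rows at the top are blue in all 3 LG libraries.

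Several rows had equal or near-equal counts. NC_030808.1_1339 had the same counts as NC_030816.1_13211 in all 9 libraries, and NC_030823.1_21029 the same as NC_030823.1_21650, so each pair was counted as 1. The 2 most abundant rows, NC_030823.1_21771 and NC_030818.1_15542, differed by at most 3 counts, or 0.0109% of the larger one. NC_030823.1_21410 and NC_030829.1_27831 differed by at most 2.14%, and NC_030811.1_6517 and NC_030816.1_12705 by at most 8.88%, and at a limit of 20% these 4 all matched each other. Each of these 3 near pairs lay on 2 different assembly sequences. No predicted miRNA had counts within 20% of those of a known one in every library. Whether reads were counted on both rows of a pair was not tested, so their values cannot be taken as those of independent miRNAs.

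NC_030823.1_21771 had levels of 2093, 1825 and 1852 in LL, 1409, 2655 and 1944 in DP and 2594, 2633 and 2856 in LG (CPM scaled by TMM, the scale of all levels from here on), and NC_030818.1_15542 the same to the digits shown. The LG libraries all lay above those of LL and the DP libraries spanned the LL range. The difference of LL vs LG was −0.49 on the log2 scale (SE 0.24), with an adjusted p = 0.186 in edgeR's quasi-likelihood test. Each standard error (SE) is the absolute log2 fold change over the square root of the F value, adjusted p-values are Benjamini-Hochberg values over all 696 miRNAs tested, and a miRNA was called when its adjusted p was under 0.05 and its absolute log2 fold change above 1.

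Among the others of the 10 most abundant, NC_030823.1_21745 had 787, 949 and 837 in LL, 844, 2092 and 861 in DP and 541, 554 and 578 in LG. All DP libraries were above all LG libraries, with DP2, the library with the highest sums of red blood cell, leukocyte and endothelial markers, far above DP1 and DP3. It was called in DP vs LG (log2 fold change 1.18, SE 0.33, adjusted p = 0.0177), a call lost under 12 of 18 alternatives, and without DP replicate 2 the fold change was 0.49 with an adjusted p = 0.119. NC_030826.1_24545 had 575, 558 and 656 in LL, 743, 1066 and 2036 in DP and 324, 429 and 782 in LG. DP3, the library with the highest sums of skeletal muscle and of smooth muscle, myoepithelium and fibroblast markers, was its highest, and LG3 overlapped the DP range. It was called in DP vs LG (1.32, SE 0.40, adjusted p = 0.0244), likewise lost under 12 of 18, and without DP replicate 3 the fold change was 0.62 with an adjusted p = 0.208.

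NW_017189851.1_35540 had 415, 480 and 427 in LL, 476, 639 and 668 in DP and 280, 160 and 211 in LG. Both LL and DP lay wholly above LG. Its DP vs LG difference was called (1.45, SE 0.26, adjusted p = 0.00165) and remained so under all 18 alternatives. Its LL vs LG difference was at the limit (1.02, SE 0.25, adjusted p = 0.0233) and was lost under 16 of the 18. NC_030828.1_27139, the 10th, is given with the rises in DP vs LL. The remaining 4 were called in no comparison. NC_030817.1_14238 had a mean of 370 ± 32.8 in LL, 433 ± 53.0 in DP and 358 ± 0.595 in LG (SD, n = 3 each). NC_030813.1_8529 ran from 257 to 584, NC_030822.1_19756 from 240 to 637 and NC_030824.1_21986 from 179 to 375 over the 9 libraries. Of their 12 edgeR tests the lowest adjusted p was that of NC_030824.1_21986 in DP vs LG (0.60, adjusted p = 0.0788).

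The first comparison, DP vs LL, sets the gland after milking has ended against the end of lactation. Of the 91 predicted miRNAs, 24 were called, 10 higher and 14 lower in DP. This is 26.4% of them, beside a background of 26.7% of the 696 miRNAs tested (15.1% higher and 11.6% lower), so the share called was that of the table as a whole. Among the 264 known miRNAs at or above 5 CPM it was 37.1%, 65 higher and 33 lower. The libraries of both stages did not overlap for 35 of the 91 (38.5%, background 41.2%). The median log2 fold change of the 91 was 0.05 and that of all 696 was 0.12. With libraries scaled by their total alone, the median of all rose to 0.49 and the calls turned to 16 higher and 10 lower. Leaving out LL replicate 1 gave 13 called (4 higher and 9 lower) and LL replicate 2 gave 15 (5 higher and 10 lower). Over all miRNAs tested, the calls fell from 186 to 124 and 128 in these fits. The rises were 6 when LL replicate 3 was left out.

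**Figure D2:**
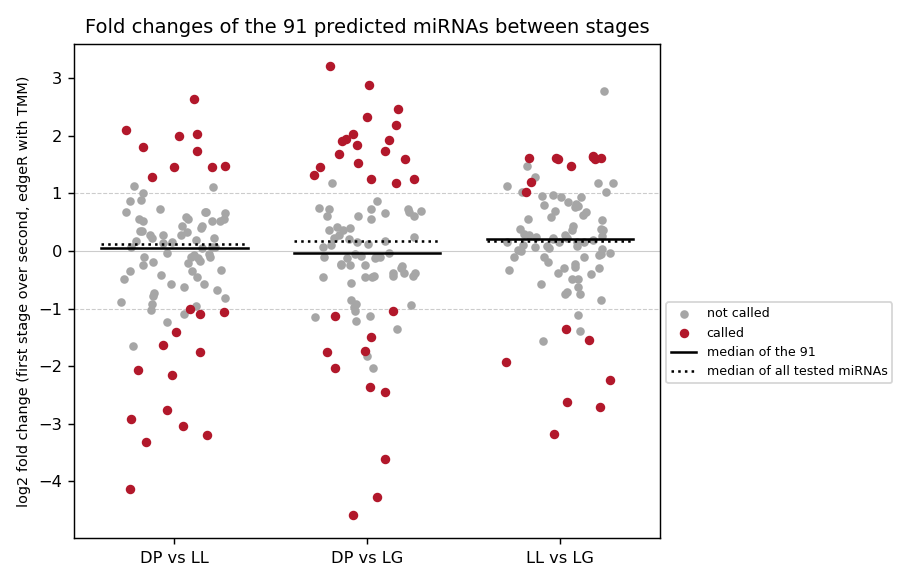
Log2 fold change of each of the 91 predicted miRNAs (points) in DP vs LL, DP vs LG and LL vs LG, red where called by edgeR and grey where not, with the median of the 91 as a full line and that of all 696 miRNAs tested as a dotted line. The red points number 24, 30 and 17, and the medians of the 91 are 0.05, −0.04 and 0.21.

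The 6 largest falls in DP vs LL among members without overlap are given first. NC_030826.1_25151 had 21.2, 33.7 and 16.8 in LL and 3.52, 0.138 and 3.53 in DP. The DP2 value rests on 3 counts, and all DP libraries were below all LL libraries. The fall was called (−3.32, SE 0.78, adjusted p = 0.00959). NC_030811.1_6576 had 7.45, 3.50 and 7.93 in LL and 1.44, 0.506 and 0.174 in DP, or 23, 11 and 4 counts. Again the stages did not overlap (−3.20, SE 0.62, adjusted p = 0.0035). NC_030808.1_558 had 7.30, 12.6 and 10.7 in LL and 0.439, 2.25 and 1.00 in DP. The highest DP library was below the lowest LL library (−3.03, SE 0.53, adjusted p = 0.00237).

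NC_030810.1_4301 had 29.7, 18.9 and 27.0 in LL and 5.46, 1.65 and 2.92 in DP. It fell in DP with wide separation (−2.92, SE 0.42, adjusted p = 0.000832). NC_030826.1_25423 had 10.4, 11.6 and 13.1 in LL and 1.26, 1.1 and 2.79 in DP (−2.76, SE 0.49, adjusted p = 0.00243). NC_030828.1_26712 had the tightest groups, with 65.3, 57.5 and 55.2 in LL and 12.0, 13.9 and 14.3 in DP (−2.15, SE 0.25, adjusted p = 0.000292). Each of these 6 falls kept its call under every alternative that was run for it. The epithelial marker miRNAs were also lower in DP, 5 of 5 by edgeR, and their part in these falls was not tested.

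Of the 14 that fell in DP vs LL, 7 were also called lower in DP than in LG. These were 5 of the 6 above (all but NC_030826.1_25151), NC_030835.1_32988 and NC_030815.1_12280. NC_030815.1_12280 had 57.3, 61.0 and 109 in LL, 16.9, 18.3 and 19.0 in DP and 30.5, 27.0 and 54.2 in LG. The stages followed one another without overlap, LL highest and DP lowest. It was called in DP vs LL (−2.07, SE 0.36, adjusted p = 0.0023) and, near the fold limit, in DP vs LG (−1.04, SE 0.35, adjusted p = 0.0403). The latter call was lost under 4 of 18 alternatives, such as without LG replicate 3 (−0.84, adjusted p = 0.107).

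The other 7 passed in DP vs LL and in neither other comparison. They were NC_030826.1_25151, NC_030823.1_21411, NC_030813.1_9300, NC_030813.1_9463, NC_030816.1_13311, NC_030823.1_21308 and NC_030828.1_27001. Whether their falls differ from those in DP vs LG was not tested. NC_030823.1_21411 had the widest spread within a stage of all 91, with 29.0, 24.6 and 0.594 in LL, or 369, 373 and 11 counts. Its DP levels were 2.01, 1.01 and 0.131 and its LG levels 4.08, 2.80 and 0.997, so the third LL library lay among those of DP. The difference in DP vs LL was called (−4.13, SE 1.21, adjusted p = 0.0263). The call was lost under 5 of 17 alternatives with the fold change still at −3.52 or beyond. These were limma-voom (−3.52, adjusted p = 0.139) and leaving out LL replicate 1 (−3.63, 0.0729), LL replicate 2 (−4.04, 0.0607), DP replicate 2 (−4.24, 0.0705) or DP replicate 3 (−3.70, 0.0581).

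The rises in DP vs LL are given next. NC_030828.1_27139 had 24.3, 42.7 and 45.2 in LL and 145, 105 and 198 in DP. Its LG levels, 221, 74.9 and 234, spanned those of DP, and all 6 libraries of DP and LG were above LL. It was called in DP vs LL (1.99, SE 0.45, adjusted p = 0.00786) and in LL vs LG (−2.24, SE 0.45, adjusted p = 0.00849), both under every alternative. NC_030828.1_27646 followed the same order at a lower level, with 0.549, 2.31 and 1.19 in LL, 3.95, 3.08 and 9.51 in DP and 15.4, 5.76 and 15.5 in LG. Its LL vs LG call (−3.17, SE 0.64, adjusted p = 0.00849) stood under every alternative. The DP vs LL call (2.02, SE 0.62, adjusted p = 0.0319) was lost under 5 of 17, namely 2 stages in the fit (1.99, adjusted p = 0.0528), a replicate block (1.86, 0.0577), and leaving out LL replicate 1 (1.81, 0.0986), LL replicate 3 (2.01, 0.0901) and DP replicate 3 (1.33, 0.107).

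NC_030826.1_25149 had 31.5, 38.4 and 43.4 in LL, 69.4, 148 and 96.8 in DP and 62.9, 59.3 and 64.5 in LG. The order was LL, LG, DP without any overlap. The rise in DP vs LL was called (1.47, SE 0.30, adjusted p = 0.00512) under every alternative, and in DP vs LG the difference was 0.75 (SE 0.30, adjusted p = 0.0740). The next running number, NC_030826.1_25150, differed from it by at most 11.5% in any library. NC_030826.1_25151, the number after that, moved the opposite way, as given above. This set of consecutive numbers was picked out after its values were seen.

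**Figure D3:**
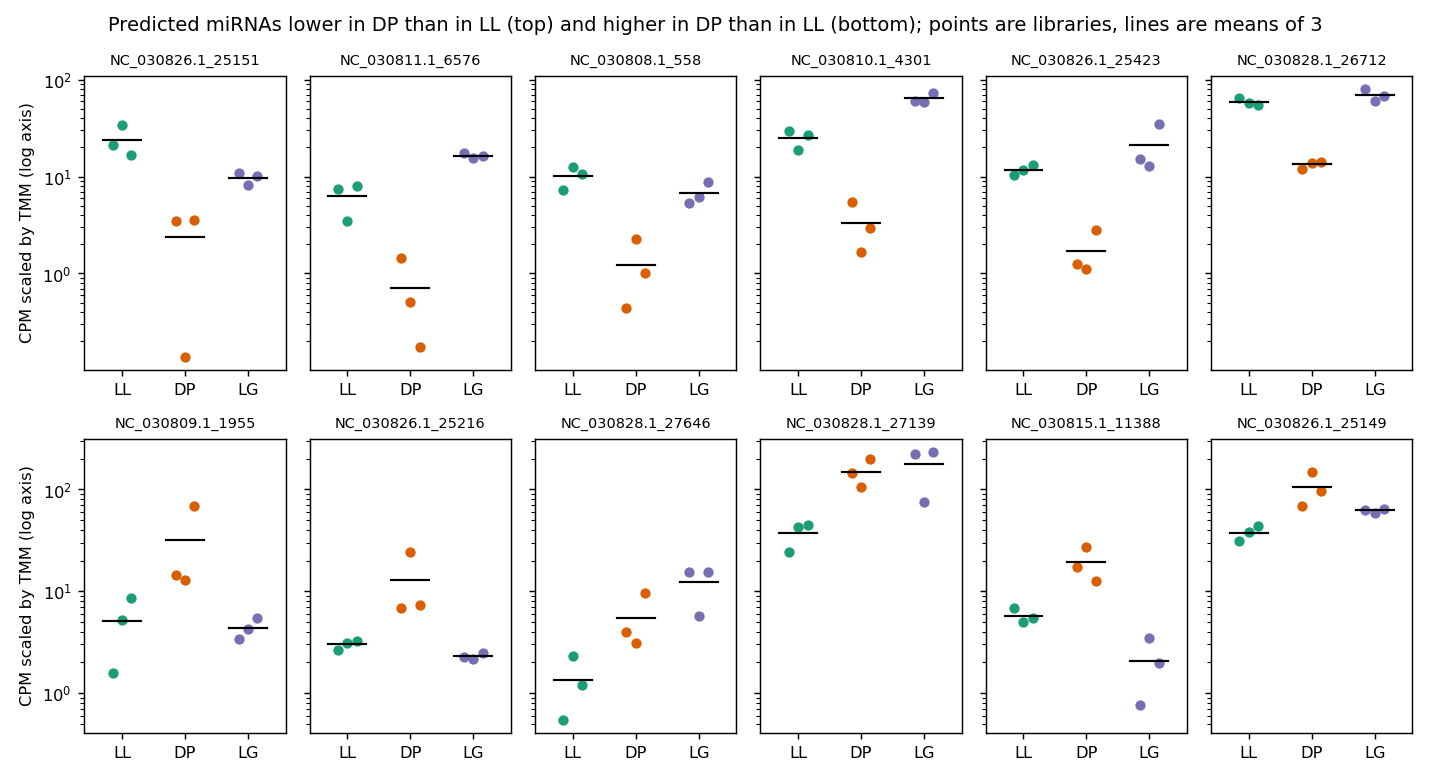
Levels (CPM scaled by TMM, log axis) of the 6 predicted miRNAs with the largest falls (top) and the 6 with the largest rises (bottom) in DP vs LL among those called without overlap, each point 1 library and each line the mean of 3. In the top panels every DP point is below every LL point, as with NC_030828.1_26712 at 12.0 to 14.3 against 55.2 to 65.3, and in the bottom panels every DP point is above every LL point, as with NC_030828.1_27139 at 105 to 198 against 24.3 to 45.2.

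Of the 10 rises, 3 were also called higher in DP than in LG. NC_030815.1_11388 had 6.83, 4.95 and 5.51 in LL, 17.5, 27.5 and 12.6 in DP and 0.755, 3.51 and 1.99 in LG. The stages were ordered LG, LL, DP without overlap. Against LG the rise was called (3.20, SE 0.53, adjusted p = 0.0012) under every alternative. Against LL it was called too (1.74, SE 0.50, adjusted p = 0.0250), but not without LL replicate 1 (adjusted p = 0.0534), LL replicate 2 (0.101), LL replicate 3 (0.0825) or DP replicate 2 (0.0769).

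NC_030826.1_25216 had 2.67, 3.10 and 3.24 in LL, 6.90, 24.1 and 7.28 in DP and 2.26, 2.17 and 2.49 in LG. DP2, where the red blood cell, leukocyte and endothelial markers summed highest, was more than 3 times the other DP libraries, and both of those were still above every LL and LG library. Calls in DP vs LL (2.09, SE 0.48, adjusted p = 0.00912) and DP vs LG (2.46, SE 0.49, adjusted p = 0.00298) held under every alternative. Without DP replicate 2 its fold changes were 1.30 and 1.5. NC_030809.1_1955 had 1.57, 5.22 and 8.58 in LL, 14.4, 12.8 and 68.7 in DP and 3.40, 4.26 and 5.41 in LG. DP3, where the skeletal muscle markers summed to 3444 (971 and 1070 in DP1 and DP2) and those of smooth muscle, myoepithelium and fibroblasts to 152577 (47515 and 67660), was again its highest library. It was called in DP vs LL (2.63, SE 0.73, adjusted p = 0.0207) and DP vs LG (2.87, SE 0.73, adjusted p = 0.0115). Without DP replicate 3 these were 1.38 (adjusted p = 0.0716) and 1.41 (adjusted p = 0.0640), with the libraries still apart. The DP vs LL call was also lost when LL replicate 1 (adjusted p = 0.0666) or LL replicate 2 (0.0692) was left out, and the DP vs LG call when LG replicate 1 (0.0586) or LG replicate 2 (0.0547) was.

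The remaining 5 rises passed in DP vs LL and in neither other comparison. Beside NC_030826.1_25149 and NC_030826.1_25150 these were NC_030810.1_3827, NC_030814.1_10579 and NW_017189517.1_34919. NW_017189517.1_34919 had 18.6, 27.6 and 23.3 in LL, 156, 71.6 and 15 in DP and 61.9, 80.3 and 63.4 in LG. Its DP libraries ran from below the LL range to above that of LG. The call (1.80, SE 0.62, adjusted p = 0.0479) was lost under 13 of 18 alternatives, and the fold change was 0.79 without DP replicate 1.

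The second comparison, DP vs LG, sets the dry gland of goats that had finished a lactation against the gland about to start one. It shares the DP libraries with the first. Of the 91, 30 were called, 19 higher and 11 lower in DP, or 33.0% beside a background of 31.5% (21.6% higher and 9.91% lower). Among the known miRNAs at or above 5 CPM it was 43.6%. The libraries did not overlap for 40 of the 91 (44.0%, background 44.7%). The median log2 fold change was −0.04 for the 91 and 0.18 for all 696. By library total alone the median of all was −0.02 and the calls were 13 higher and 13 lower. With DESeq2 they were 18 and 18, and with chi-miR-148a-3p dropped from the counts 13 and 18. Leaving out DP replicate 2 gave 12 rises, leaving out LG replicate 1 or LG replicate 2 gave 11, and without DP replicate 1 there were 18 falls. Calls over all miRNAs tested, 219 in the main fit, were 178, 161, 164 and 248 in these fits.

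Of the 6 largest falls in DP vs LG, 5 were among the 6 given for DP vs LL. NC_030811.1_6576 had 17.7, 15.5 and 16.3 in LG, against at most 1.44 in DP (−4.59, SE 0.65, adjusted p = 0.000595). NC_030810.1_4301 had 59.9, 59.1 and 73.7 in LG, against at most 5.46 in DP (−4.27, SE 0.45, adjusted p = 0.000134). Its LL level lay between the other 2 stages, and it was the single member called in all 3 comparisons. LL vs LG gave −1.35 (SE 0.39, adjusted p = 0.0447), a call lost without any 1 of the LL or LG libraries (adjusted p from 0.0573 to 0.111). NC_030826.1_25423 had 15.3, 12.8 and 35.2 in LG (−3.61, SE 0.51, adjusted p = 0.000595). NC_030808.1_558 had 5.32, 6.12 and 8.88 (−2.44, SE 0.52, adjusted p = 0.00492). NC_030828.1_26712 had 79.8, 60.1 and 67.5 (−2.37, SE 0.25, adjusted p = 0.000134). All 5 DP vs LG falls were called under every alternative run for them.

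Another 3 were called higher in LG than in both other stages. NC_030810.1_5013 had 3.92, 4.43 and 7.56 in LL, 3.33, 5.10 and 6.32 in DP and 15.2, 14.6 and 30.8 in LG. LG was above all 6 other libraries, and DP and LL overlapped. The fold changes were −2.03 in DP vs LG (SE 0.42, adjusted p = 0.00419) and −1.92 in LL vs LG (SE 0.42, adjusted p = 0.0120). The LL vs LG call was lost without LL replicate 1 (adjusted p = 0.0580) or LL replicate 2 (0.0566). NC_030828.1_26957 had 20.6, 26.9 and 25.2 in LL, 29.4, 10.5 and 22.9 in DP and 56.9, 79.5 and 75.0 in LG. Here too LG stood clear of both (−1.75 and −1.54, adjusted p = 0.00434 and 0.0183). Its LL vs LG call was lost when LL replicate 1 (−1.66, adjusted p = 0.0580) or LL replicate 2 (−1.76, 0.0516) was left out. NC_030829.1_27800 had 2.98, 2.25 and 3.18 in LL, 4.39, 4.60 and 9.42 in DP and 13.4, 26.8 and 12.0 in LG. Its stages were ordered LL, DP, LG without overlap, with −1.5 in DP vs LG (adjusted p = 0.0178) and −2.63 in LL vs LG (adjusted p = 0.00394). The DP vs LG call was lost under 3 of 18 alternatives, at the lowest −1.15 without LG replicate 2 (adjusted p = 0.0902). NC_030825.1_23224 was the remaining fall in DP vs LG (−1.13, adjusted p = 0.00558), with 37.9, 36.8 and 38.9 in LL, 25.4, 20.5 and 19.8 in DP and 41.1, 46.9 and 55.6 in LG.

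The third comparison, LL vs LG, sets the end of one lactation against the weeks before the next. It shares its libraries with the other 2. Of the 91, 17 were called, 10 higher and 7 lower in LL, or 18.7% beside a background of 12.8% (8.91% higher and 3.88% lower). The known miRNAs at or above 5 CPM had 12.9%. Without overlap were 46 of the 91 (50.5%, background 48.4%). The calls depended on the libraries and the scaling. Leaving out LL replicate 1 or LL replicate 2 gave 4 each, and leaving out LG replicate 1, 2 or 3 gave 7, 8 and 5. The calls over all miRNAs tested fell in these fits too, from 89 to 33, 36, 54, 60 and 41. By library total alone the median of all 696 miRNAs moved from 0.17 to −0.42, and the calls were 1 higher and 15 lower, beside 120 calls among all 696. With upper quartile scaling, or chi-miR-148a-3p dropped from the table, they were 6 higher and 8 lower.

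The 10 that were higher in LL included 9 that were also higher in DP than in LG, so that late gestation was their lowest stage. Of the 6 with the largest rises, 4 were the near-equal rows NC_030811.1_6517, NC_030816.1_12705, NC_030823.1_21410 and NC_030829.1_27831. NC_030829.1_27831 stands for them, with 23.8, 35.5 and 14.2 in LL, 34.2, 26.9 and 31.2 in DP and 8.03, 9.20 and 7.07 in LG. LG was below all other libraries, and LL spanned the DP range. For this row DP vs LG was 1.93 (SE 0.35, adjusted p = 0.00184), called under every alternative. LL vs LG was 1.6 (SE 0.35, adjusted p = 0.0119), called under 12 of 18. Among the losses were library total alone (1.06, adjusted p = 0.0942) and without LL replicate 2 (1.13, adjusted p = 0.103). The other 3 rows ran from 1.84 to 1.94 in DP vs LG and from 1.6 to 1.63 in LL vs LG, and their LL vs LG calls were likewise kept under 12 of 18.

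NC_030815.1_12105 had 43.6, 60.0 and 37.1 in LL, 59.1, 100 and 65.7 in DP and 14.7, 14.9 and 15.3 in LG. All LG libraries were below all others (DP vs LG 2.32, SE 0.30, adjusted p = 0.000354, and LL vs LG 1.65, SE 0.30, adjusted p = 0.00569). NC_030826.1_25425 had 59.9, 85.4 and 49.5 in LL, 85.7, 120 and 81.2 in DP and 21.4, 24.3 and 24.4 in LG (2.03, adjusted p = 0.000628, and 1.47, adjusted p = 0.00788). NC_030828.1_27534 had 17.9, 20.9 and 16.7 in LL, 30.2, 52.2 and 28.5 in DP and 7.07, 7.50 and 9.72 in LG. The order LG, LL, DP held without overlap (2.19, adjusted p = 0.000671, and 1.19, adjusted p = 0.0296). Their 3 DP vs LG calls stood under every alternative. In LL vs LG, NC_030815.1_12105 kept 16 of 18 (lost without LL replicate 2 or LG replicate 3, adjusted p = 0.0528 and 0.0513), NC_030826.1_25425 13 and NC_030828.1_27534 5.

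NC_030813.1_9442 had 13.3, 10.8 and 19.6 in LL, 5.65, 21.8 and 18.4 in DP and 5.01, 4.90 and 4.40 in LG. DP1, the shallowest library, was close to LG and the other 2 DP libraries were not. Its calls (DP vs LG 1.68, adjusted p = 0.0161, and LL vs LG 1.61, adjusted p = 0.0409) were kept under 11 and 5 of 18 alternatives. The 9th of the set was NW_017189851.1_35540, given with the most abundant. NC_030817.1_14414 passed in LL vs LG alone (1.61, adjusted p = 0.0472), with LL3 at 9.50 inside the LG range of 5.41 to 10.5. In the opposite direction NC_030832.1_31269 passed in LL vs LG alone (−2.70, adjusted p = 0.0378), with LG1 at 2.64 and the other LG libraries at 13.6 and 17.0. A further 7 passed in DP vs LG as rises and nowhere else. They were NC_030810.1_4233, NC_030822.1_19803, NC_030823.1_21745, NC_030826.1_24545, NC_030832.1_31111, NC_030834.1_32127 and NC_030834.1_32128.

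Some predicted miRNAs kept a near-constant ratio to another miRNA over the 9 libraries. This was looked at after the values were seen and is a description, since all values come from the same 9 libraries and the miRNAs compared were those that varied. For every ratio between miRNAs here and below, 0.5 CPM was first added to both levels, which weighs most at low levels. Over 2080 pairs of 65 predicted miRNAs, the SD of the log2 ratio had a median of 1.21 and was under 0.2 for 10 pairs, of which 6 were within the near-equal set of 4. NC_030822.1_19803 was 0.0158 to 0.0191 times NC_030823.1_21745 in every library. NC_030815.1_12105 was 0.622 to 0.834 times NC_030826.1_25425. NC_030834.1_32127 and NC_030834.1_32128, with consecutive numbers, had ratios of 0.378 to 0.517.

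Against known miRNAs, 12285 pairs were compared and 5 had an SD under 0.2. NC_030826.1_25425 was 19.4% to 28% of chi-miR-3432-5p, whose levels were 269, 399 and 184 in LL, 344, 431 and 406 in DP and 113, 94.8 and 97.6 in LG. The near-equal set of 4 and NC_030815.1_12105 also had chi-miR-3432-5p as the known miRNA they followed most closely, with SDs of 0.219 to 0.248. This known miRNA was called in DP vs LG (1.95, SE 0.29, adjusted p = 0.000731) and in LL vs LG (1.48, SE 0.29, adjusted p = 0.00788).

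Both arms of miR-378, which lies in an intron of PPARGC1B in mammals and is known from fat and energy metabolism, had a predicted miRNA beside them. With 0.5 CPM added to both levels, NC_030828.1_26712 was 1.36% to 2.08% of chi-miR-378-3p, and NC_030835.1_32988 was 315% to 464% of chi-miR-378-5p. NC_030835.1_32988 had 99.2, 99.3 and 62.4 in LL, 22.3, 23.8 and 37.8 in DP and 89.7, 85.9 and 104 in LG. DP was below all other libraries, and LL and LG overlapped (DP vs LL −1.63, adjusted p = 0.00287, and DP vs LG −1.74, adjusted p = 0.00155, both under every alternative). The levels of chi-miR-378-3p were 3502 ± 503 in LL, 882 ± 196 in DP and 3918 ± 872 in LG (SD, n = 3 each). Its log2 fold changes were −1.99 in DP vs LL and −2.15 in DP vs LG, and those of chi-miR-378-5p were −1.93 and −2.04. The other 2 pairs were NC_030825.1_23224 with chi-miR-1307-3p (49.7% to 69.4% of it) and NC_030813.1_9463 with chi-miR-148b-3p (0.466% to 0.714%). Whether a predicted row and the known miRNA hold reads of the same molecule was not tested.

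**Figure D4:**
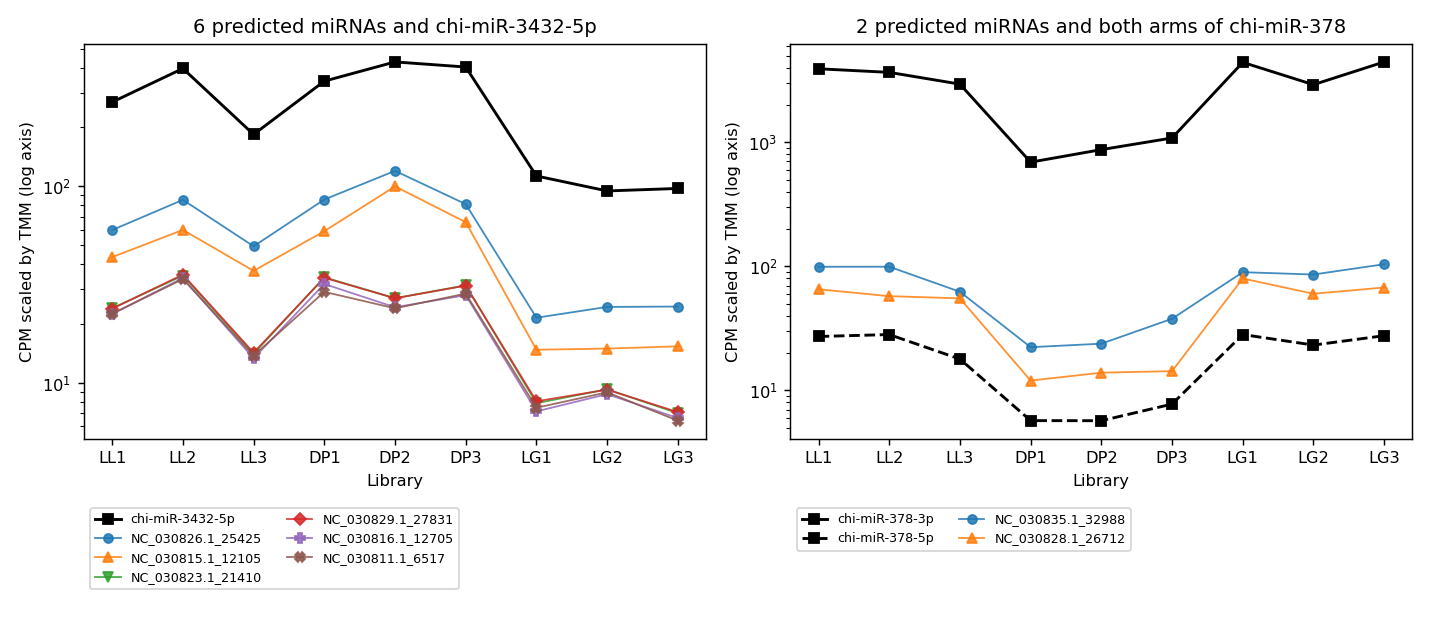
Levels (CPM scaled by TMM, log axis) in the 9 libraries of 6 predicted miRNAs with chi-miR-3432-5p (left, black squares) and of 2 predicted miRNAs with both arms of chi-miR-378 (right, black squares), with lines joining the libraries for the eye only. On the left all lines are lowest in the 3 LG libraries and dip at LL3, and on the right all are lowest in the 3 DP libraries.

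Of the 91, 46 were called in at least 1 comparison (50.5%, background 43.7%). Among the 264 known miRNAs at or above 5 CPM the share was 56.8%. Among the 226 other predicted miRNAs tested it was 29.2%, with the rows left out by name not counted. The other 45 were called in none by edgeR. Counting every member, 35, 45 and 35 of the 91 had an unadjusted p under 0.05 in DP vs LL, DP vs LG and LL vs LG. Among all 696 miRNAs tested the numbers were 282, 311 and 230. In 41 of the 91 no log2 fold change reached 1, and in 20 none reached 0.5. The smallest changes were those of NC_030836.1_33523, at 109 ± 31.2 in LL, 101 ± 41.4 in DP and 105 ± 10.4 in LG (SD, n = 3 each), with a largest log2 fold change of 0.11. NC_030826.1_25755 followed with 87.7 ± 20, 84.6 ± 20.5 and 91.6 ± 25.2, and a largest change of 0.12. NC_030830.1_29154 (0.16), NC_030820.1_18384 (0.19) and NC_030828.1_26896 (0.21) came next. A small mean change did not mean even libraries: NC_030830.1_29154 ran from 3.40 in LG1 to 19.0 in LG3, within a single stage.

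Spread within a stage was largest in DP. The median SD of log2 CPM of the 91 was 0.303 in LL, 0.551 in DP and 0.253 in LG, and that of 223 known miRNAs of the same range of levels was 0.235, 0.462 and 0.2. An SD over 1 was seen for 12 of the 91 in DP and for 3 each in LL and LG, beside 32 of the 223 known ones in DP, 3 in LL and 1 in LG. After NC_030823.1_21411 (2.68 in LL), the widest were in DP, NC_030815.1_12531 with 1.81, NW_017189517.1_34797 with 1.75, NW_017189517.1_34919 with 1.70 and NC_030826.1_25151 with 1.53. NC_030815.1_12531 had 111, 10.2 and 74.9 in DP, against 111 to 164 in LL and 127 to 177 in LG. DP2 was the low library there, and also for NW_017189517.1_34797, at 0.460 (10 counts) beside 7.91 and 6.67 in the other DP libraries. Neither was called in any comparison by edgeR. With 0.5 CPM added to each level, DP1 was at least 2 times below both other DP libraries for 11 of the 91. It was at least 2 times above both for 2. Among the 223 known miRNAs these numbers were 9 and 39. For DP2 they were 5 and 5 of the 91, and 12 and 3 of the 223. For DP3 they were 2 and 3 of the 91, and 6 and 11 of the 223.

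The deepest and the shallowest library of each stage were also set side by side, after the values were seen. The deepest library of a stage had 1.5 times the total of the shallowest in LL (LL3 over LL2), 1.71 times in DP (DP2 over DP1) and 1.61 times in LG (LG3 over LG2). Ratios of levels were taken after 0.5 CPM was added to both levels, which weighs most at low levels. Of the 91, 10 (11%) were at least 1.5 times higher in the deepest library in all 3 stages, beside 0 of 223 known miRNAs of the same range. The opposite was seen for 3 of the 91 and 3 of the 223. These 10 were NC_030814.1_10661, NC_030822.1_20026, NC_030824.1_22051, NC_030826.1_25273, NC_030826.1_25741, NC_030827.1_26063, NC_030830.1_29154, NC_030831.1_29992, NC_030832.1_30588 and NC_030833.1_31666. NC_030826.1_25741 had 4.32, 3.30 and 8.74 in LL, 2.13, 13.1 and 4.53 in DP and 2.44, 2.72 and 10.1 in LG. LL3, DP2 and LG3 were its highest in each stage, by ratios of 2.43, 5.16 and 3.29 over the shallowest, with the 0.5 CPM added. DP3 had 22430144 counts, close to the 23392916 of DP2 and above the 13672653 of DP1, and the levels there differed among the 10. NC_030826.1_25741 and NC_030830.1_29154 were lower in DP3 than in DP2 (4.53 and 13.1 for the first, 8.63 and 16.9 for the second), and NC_030831.1_29992 was higher (82.5 and 51.3). Also lower in DP3 were NC_030832.1_30588 (37.7 and 64.3), NC_030814.1_10661 (6.58 and 9.97) and NC_030826.1_25273 (3.49 and 4.78). In 4 others DP3 and DP2 were alike and DP1 was lower than both, as it was in all 10. NC_030833.1_31666 had 3.89, 19.7 and 18.7 in DP1, DP2 and DP3, NC_030824.1_22051 had 7.91, 21.0 and 20.4, NC_030827.1_26063 had 19.3, 51.0 and 45.6, and NC_030822.1_20026 had 40.7, 95.1 and 83.5. The part of depth in these levels was not tested. With the 0.5 CPM added, NC_030833.1_31666 had ratios of 1.58, 4.59 and 3.36. None of the 10 was called between stages by edgeR.

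**Figure D5:**
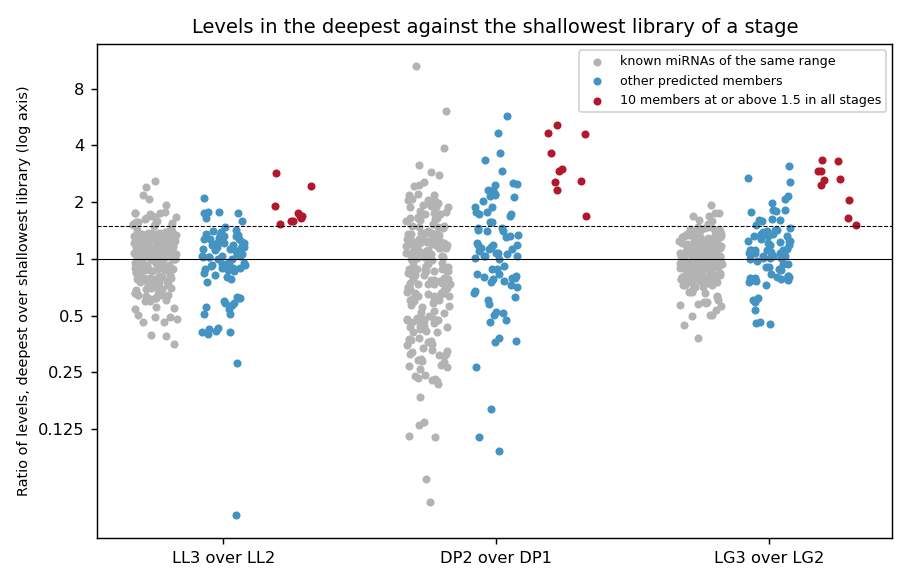
Ratio of the level (CPM scaled by TMM, log axis) in the deepest library of a stage to that in the shallowest, for LL3 over LL2, DP2 over DP1 and LG3 over LG2, each point 1 miRNA, with 223 known miRNAs in grey, 81 predicted miRNAs in blue and 10 in red. Ratios were taken after 0.5 CPM was added to both levels. The dashed line is a ratio of 1.5. The red points, chosen for lying on or above it in all 3 stages, reach 5.16, while no grey point lies there in all 3.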

How the data were processed

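Small RNA libraries of 9 goats (LL, DP and LG, 3 each) were analysed. The authors ran miRDeep2 against the goat genome (ARS1.2), joined predicted and known miRNAs, and deposited the quantifier's counts as they were, with no normalization. The submitters' processing notes also name FastQC 0.11.9, cutadapt 4.2 and Bowtie 1.1.1. LL3 was deposited as an expected count column, with 2 values at 209.5, and was rounded.

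The test was edgeR's quasi-likelihood test (edgeR 4.0.16, R 4.3.3) with TMM, all 9 libraries in 1 fit and no term but stage. A miRNA needed 0.5 CPM or more in 3 libraries, which 696 reached, all 91 members among them. SDs of log2 CPM were those of log2(CPM scaled by TMM + 0.5). Correlations between libraries used edgeR's log2 CPM with a prior count of 2. DESeq2 1.42.0, limma-voom (limma 3.58.1), other scalings and filters, fits of 2 stages, a block for the replicate number and fits without 1 library were the alternatives.

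The members and lists were chosen with earlier results of these data known. Named are the 10 highest members, up to 6 largest rises and falls per comparison among called members without overlap, those the study names, those nearest the limit, near-equal pairs, the 5 of least change, the 5 of largest spread and any called in all 3 comparisons. Others were named after their values were seen. The rule, shares and border use CPM by library total.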

Additional observations from a re-analysis of the deposited data

How the results depend on the processing

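For the 55 calls of named miRNAs, 982 values were computed under alternatives. Of these, 828 kept direction and call, 154 kept the direction and lost the call, and 0 reversed. Of the 55 calls, 32 stood under every alternative run. In DP vs LL the rises numbered 16 by library size only and 6 with 2 stages in the fit. In DP vs LG the falls numbered 18 with DESeq2, without chi-miR-148a-3p and without a filter, and the rises 12 without a filter and with 2 stages in the fit. In LL vs LG the rises numbered 6 with upper quartile scaling, without chi-miR-148a-3p, without a filter and with at least 10 counts in every library, and by library size only there were 1 rise and 15 falls.

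When 1 library was left out, the number called ranged from 13 to 29 in DP vs LL (4 to 10 higher, 9 to 19 lower), from 23 to 37 in DP vs LG (11 to 19 higher, 11 to 18 lower) and from 4 to 21 in LL vs LG (0 to 11 higher, 3 to 10 lower).

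At a limit of 2 CPM, 154 predicted miRNAs met the rule. With TMM, 28 were highest in LL and 26 in LG. Without chi-miR-148a-3p in the totals, the summed share was 1.70% in LL, 1.27% in DP and 2.18% in LG, so that DP rather than LL had the lowest. At a limit of 20%, 11 pairs of rows were near-equal.

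Replicate numbers in the labels did not pair the goats, which were different animals in each stage. Deviations of libraries with the same number correlated between −0.101 and 0.214, and those with different numbers between −0.23 and 0.149. With a replicate block, 22, 31 and 17 were called in DP vs LL, DP vs LG and LL vs LG, beside 170, 222 and 88 of all 696. The 3 goats per stage limit what could be detected.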
